A study of Mus musculus with 13 samples.

Results

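Common lymphoid progenitors (CLP) that carry the surface protein Ly6D but not Gfra2 were compared, across all genes, with CLP that carry neither protein. Libraries were chosen by their sort label and, in 1 case, by their Ly6d level: 4 labelled Ly6D+Gfra2- against 5 labelled Ly6D-Gfra2-, which makes 9 of the 13 libraries of the study. A further Ly6D-Gfra2- library, replicate 3, was left out because its Ly6d level lies in the range of the Ly6D-positive libraries. The 3 Ly6D+Gfra2+ libraries of the study stood outside the contrast but entered the same fit. They shared in the choice of genes to test, the scaling and the estimate of the spread between libraries. Their levels are also given beside those of some genes.

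All cells came from bone marrow of wild-type C57BL/6 mice and were sorted by flow cytometry. By label the groups differ in the sort gate, and the labels name no treatment, no time and no age or sex of the mice. Each library name starts with P or T, a prefix whose meaning the labels do not give. Prefix P stands on replicates 1 and 2 of Ly6D+Gfra2- and on replicates 1 to 3 of Ly6D-Gfra2-, and prefix T on the rest. The labels do not say whether replicates came from separate mice or whether mice were pooled, so a p-value here speaks of the spread among these libraries only, and that spread may be technical.

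CLP are the bone marrow cells from which B cells develop, and they keep the ability to give rise to T cells, natural killer cells and some dendritic cells. Ly6D is a small lipid-anchored membrane protein, and its appearance on CLP is known to mark progenitors leaning towards the B lineage. In that lineage the transcription factors Ebf1 and Foxo1 act early, the Rag recombinase starts to rearrange immunoglobulin genes, and signalling parts of the future B-cell receptor are made. Gfra2 is a receptor subunit for neurturin, a ligand of the GDNF family.

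Levels are given as CPM, counts per 1000000 counts of the scaled library. Ly6d itself, which served to choose the libraries, is described without a test. Its level was 158, 169, 348 and 506 CPM in Ly6D+Gfra2- replicates 1, 2, 5 and 6. It was 6.66, 0.622, 3.92, 5.36 and 8.29 CPM in Ly6D-Gfra2- replicates 1, 2, 4, 5 and 6. The library labelled Ly6D-Gfra2- replicate 3 held 213 CPM, so it lies inside the Ly6D+Gfra2- range and far above the highest library kept, at 8.29 CPM. Gfra2, the other sort marker, ranged from 0.195 to 14.7 CPM in the Ly6D+Gfra2- group and from 0 to 3.50 CPM in the Ly6D-Gfra2- libraries kept, against 286 to 514 CPM in the Ly6D+Gfra2+ libraries.

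The markers of CLP were present in both groups. Flt3, the receptor for a cytokine that lymphoid progenitors need, was at 954 to 1115 CPM in Ly6D+Gfra2- and 809 to 1258 CPM in Ly6D-Gfra2- libraries. Dntt, the polymerase that adds bases at rearranging receptor genes, was at 3247 to 4478 CPM and 3399 to 3818 CPM. Neither differed between the groups by more than the spread of the libraries (log2 fold change -0.01 ± 0.15 and 0.06 ± 0.11, SE of the edgeR fit). The other CLP markers considered, Il7r, Kit and Rag1, did not overlap between the groups. Their log2 fold changes were 0.74 ± 0.19, -0.91 ± 0.26 and 1.51 ± 0.24, and only Rag1 of them passed the test described below. The 13 libraries held 6892728 to 23705975 counts. In the 9 libraries compared, 3 counts correspond to 0.133 to 0.389 CPM, which sets the lowest level that can be read. Ly6D+Gfra2- replicate 1 had counts for 11636 genes, against 12904 to 13684 in the other 8, and its correlations with the rest of its group were the lowest (Pearson r over genes 0.797 to 0.819, against 0.880 to 0.883 among the other 3).

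Beside Ly6d, 15 genes passed the test, and all of them were higher in the Ly6D+Gfra2- libraries. Among the 15 were 3 transcription factors (Spib, Ebf1 and Foxo1), 3 genes of B-cell receptor signalling (Cd79a, Blk and Blnk), the recombinase gene Rag1, the plasmacytoid dendritic cell receptor Siglech, and 2 neighbours of Ly6d on its chromosome (Lynx1 and Ly6e). The remaining 5 were Cecr2, Stum, Tex2, Tfrc and Fryl. The 15 are 0.119% of the 12553 genes tested other than Ly6d (edgeR quasi-likelihood test, Benjamini-Hochberg adjusted p under 0.05). Ly6d is the 16th gene under that threshold, which makes 0.127% of all 12554, but the sort and the choice of libraries fixed its difference, and nothing is read from it. No gene passed in the lower direction by this test, while 533 genes (4.25%) had an unadjusted p under 0.05, 318 of them higher and 215 lower. DESeq2 called 72 genes higher and 35 lower (0.670% of the genes entered), and limma voom called 41 higher and 6 lower (0.374%). Of the 15 genes, DESeq2 called all 15 and voom 14, Cd79a being the exception, on the same counts that chose the 15. In a bulk library, more cells of a type and more RNA per cell cannot be told apart, and this holds for every difference below.

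**Figure D1:**
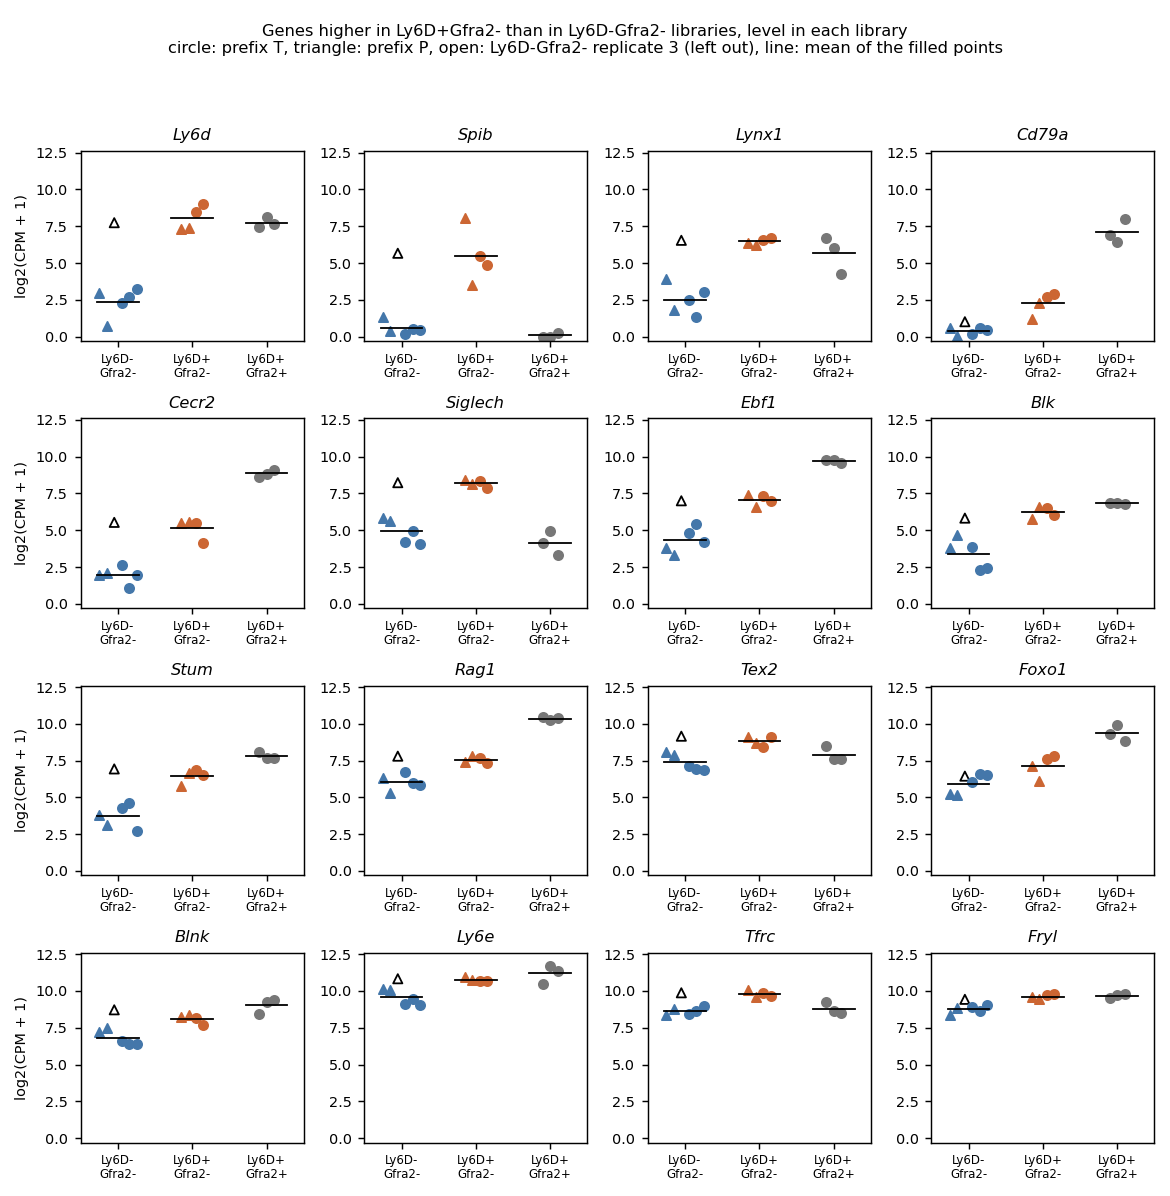
Level of each of the 16 genes in each library, as log2(CPM + 1), by sort label, with prefix T as circles, prefix P as triangles, the mean of the filled points as a line and Ly6D-Gfra2- replicate 3 as an open triangle. The 4 Ly6D+Gfra2- libraries lie above the 5 Ly6D-Gfra2- libraries for each gene except Foxo1, and the open triangle lies with the Ly6D+Gfra2- libraries for most genes, as Siglech at 299.6 CPM shows.

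The 15 genes depend on leaving out replicate 3. With that library counted as Ly6D-Gfra2-, no gene passed the edgeR test (0 of 12722, with 599 at an unadjusted p under 0.05), and the adjusted p of the 15 ran from 0.659 to 0.938. Voom then called 1 gene (0.00786%), which was Ly6d and none of the 15. DESeq2 called 49 (0.303% of the genes entered), Blk and Cd79a among them. It gave no adjusted p for Ebf1, Spib, Siglech and Stum, and the other 9 of the 15 did not pass. All 15 kept a positive log2 fold change with replicate 3 included, between 0.71 and 4.93. Replicate 3 lay at or above the lowest Ly6D+Gfra2- library for 14 of the 15, the exception being Cd79a. The 5 libraries of prefix T do not involve replicate 3, but they are among those that chose the 15 genes and are no separate check. Within them all 15 genes were higher without overlap, as were 12.1% of all genes tested. Tested alone, the prefix T libraries gave 11 of the 15 by DESeq2 and 10 by voom, in fits added after the data were seen. By these fits DESeq2 called 0.257% of all genes and voom 0.189%. The edgeR test on them called none of the 15, only Ly6d (0.00786%), and the adjusted p of the 15 ran from 0.0679 to 0.648.

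Of the 3 called B-lineage transcription factors, Ebf1 had the smallest adjusted p. Ebf1, which commits progenitors to the B lineage, was at 165, 92.7, 161 and 127 CPM in Ly6D+Gfra2- replicates 1, 2, 5 and 6. In Ly6D-Gfra2- replicates 1, 2, 4, 5 and 6 it was at 12.8, 9.19, 26.5, 42.0 and 17.7 CPM. The groups did not overlap, and the lowest Ly6D+Gfra2- library lay above the highest of the other group. The mean was 136 ± 33.6 CPM (SD, n = 4) against 21.7 ± 13.1 CPM (SD, n = 5). The log2 fold change was 2.88 ± 0.32 (SE; edgeR adjusted p = 0.000719). Replicate 3 held 127 CPM, and with it in the group the log2 fold change was 1.86. Leaving out any 1 of the 9 libraries kept Ebf1 called, with log2 fold changes of 2.60 to 3.13. The 3 Ly6D+Gfra2+ libraries were higher again, at 753 to 891 CPM.

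Spib, an Ets-family factor used by both B cells and plasmacytoid dendritic cells, had the largest fold change of the 15 and the largest standard error. It was at 271, 10.3, 44.1 and 28.6 CPM in Ly6D+Gfra2- replicates 1, 2, 5 and 6 and at 1.49, 0.311, 0.119, 0.413 and 0.389 CPM in Ly6D-Gfra2- replicates 1, 2, 4, 5 and 6. The groups did not overlap, although replicate 1 of Ly6D+Gfra2- stood well above the other 3. The log2 fold change was 7.07 ± 0.99 (edgeR adjusted p = 0.00606), with 4.93 when replicate 3, at 49.8 CPM, was counted. Without Ly6D+Gfra2- replicate 1 Spib was no longer called (log2 fold change 5.88, adjusted p = 0.175). In the Ly6D+Gfra2+ libraries Spib was near 0, at 0, 0 and 0.216 CPM, so all 3 lay below all 4 Ly6D+Gfra2- libraries.

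Foxo1, a forkhead factor that acts upstream of Ebf1 and the Rag genes, was at 138, 67.7, 193 and 221 CPM in Ly6D+Gfra2- replicates 1, 2, 5 and 6. It was at 35.8, 34.9, 64.1, 94.1 and 90.7 CPM in Ly6D-Gfra2- replicates 1, 2, 4, 5 and 6. Foxo1 was the only gene of the 15 whose groups overlapped, since both groups were lower in prefix P than in prefix T. Within each prefix the groups were apart. The log2 fold change was 1.42 ± 0.26 (edgeR adjusted p = 0.0461), and the call was lost when any 1 library other than Ly6D+Gfra2- replicate 2 was left out, with adjusted p up to 0.261. Foxo1 also lost the call when only the 9 libraries were fitted (edgeR adjusted p = 0.0508).

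Over the whole list of B-lineage transcription factors, 3 of 19 tested members passed, 14 had a positive fold change and 5 a negative one, and the list's median log2 fold change was 0.47 against 0.00 for all genes. Of all genes 50.4% were positive, 49.6% negative and 0.127% called. This list, like the others, was chosen with earlier results of these data known. Within prefix P the list's median was -0.05. Irf4, a factor of later B-cell stages, did not pass: it was at 10.9 to 48.6 CPM against 1.07 to 8.29 CPM, without overlap (log2 fold change 2.66 ± 0.65, edgeR adjusted p = 0.259). Ikzf1, a factor present throughout lymphoid development, had a log2 fold change of 0.00 ± 0.15. Tcf3, which encodes the E proteins that act with Ebf1, was at 152 to 268 CPM against 85.0 to 258 CPM. Pax5, which seals B-lineage identity after Ebf1, was at 0.152 to 0.709 CPM and at 0 to 0.357 CPM. Its counts were 16 and 3 over the groups, a ratio of 5.82 (95% interval 1.67 to 31.2, counting error only), and it reached 53.8 to 101 CPM in the Ly6D+Gfra2+ libraries.

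Blk, Blnk and Cd79a rose among the genes of B-cell receptor signalling. Blk, a Src-family kinase of B cells, was at 54.2, 93.0, 91.1 and 65.6 CPM in Ly6D+Gfra2- replicates 1, 2, 5 and 6. It was at 12.9, 24.2, 13.2, 3.96 and 4.53 CPM in Ly6D-Gfra2- replicates 1, 2, 4, 5 and 6. There was no overlap, and the log2 fold change was 2.79 ± 0.47 (edgeR adjusted p = 0.0313), or 2.42 with replicate 3. Blnk, the adaptor that links the kinase Syk to downstream enzymes, was at 203 to 327 CPM against 84.3 to 176 CPM (1.26 ± 0.22, edgeR adjusted p = 0.0354). With replicate 3 the Blnk value was 0.94.

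Cd79a, a signalling chain of the B-cell receptor, changed at a very low level. It was at 1.30, 3.96, 5.59 and 6.59 CPM in Ly6D+Gfra2- replicates 1, 2, 5 and 6 and between 0.0444 and 0.497 CPM in the 5 Ly6D-Gfra2- libraries, where 3 counts correspond to 0.133 to 0.389 CPM. The log2 fold change was 3.83 ± 0.66 (edgeR adjusted p = 0.0325; voom adjusted p = 0.180). When only the 9 libraries were fitted, the edgeR adjusted p was 0.441. Replicate 3, at 1.02 CPM, lay between the groups. In the Ly6D+Gfra2+ libraries Cd79a reached 84.5 to 254 CPM.

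For the whole list of B-cell receptor genes, 3 of 17 tested members passed, 13 were positive and 4 negative, 5 were higher without overlap and none was lower without overlap, and the median log2 fold change was 0.65. Over all genes 0.127% were called and 50.4% positive, and 1.37% were higher without overlap and 1.48% lower. Syk, the kinase above Blnk, was at 284, 411, 337 and 382 CPM against 216 to 256 CPM, without overlap, and did not pass (0.63 ± 0.18, edgeR adjusted p = 0.555). Vpreb2, a part of the surrogate light chain that shares sequence with Vpreb1, had 2 counts in the Ly6D-Gfra2- libraries, a ratio of 25.7 (95% interval 6.72 to 218, counting error only). Ms4a1, the gene of the B-cell marker CD20, had no count in either group.

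Rag1 was the one gene of V(D)J recombination that passed. It was at 169, 222, 208 and 158 CPM in Ly6D+Gfra2- replicates 1, 2, 5 and 6 and at 76.9, 37.5, 104, 62.0 and 57.2 CPM in Ly6D-Gfra2- replicates 1, 2, 4, 5 and 6. The groups did not overlap. The log2 fold change was 1.51 ± 0.24 (edgeR adjusted p = 0.0233), and 1.05 with replicate 3, which stood at 222 CPM. Rag1 lost the call when only the 9 libraries were fitted (edgeR adjusted p = 0.0556). The Ly6D+Gfra2+ libraries held 1228 to 1382 CPM, all above the Ly6D+Gfra2- libraries. Rag2, the partner of Rag1 in the recombinase, was at 194 to 493 CPM against 212 to 350 CPM (0.21 ± 0.26). Of the 13 tested genes of this list, 8 were positive and 5 negative, and the median was 0.06. Over all genes 50.4% were positive and 0.127% called.

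Siglech, a surface lectin typical of plasmacytoid dendritic cells, was at 346, 275, 319 and 230 CPM in Ly6D+Gfra2- replicates 1, 2, 5 and 6. It was at 54.9, 48.2, 17.1, 29.5 and 15.7 CPM in Ly6D-Gfra2- replicates 1, 2, 4, 5 and 6. The groups were far apart, and prefix T was the lower of the prefixes in the Ly6D-Gfra2- group. The log2 fold change was 3.22 ± 0.38 (edgeR adjusted p = 0.000837), and 2.57 with replicate 3, at 299.6 CPM. The call held when any 1 of the 9 libraries was left out. In the Ly6D+Gfra2+ libraries Siglech was at 9.09 to 29.5 CPM, all below the Ly6D+Gfra2- libraries.

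The other genes of plasmacytoid dendritic cells were mostly higher too, without passing. Of 14 tested, 13 were positive, 4 were higher without overlap, 1 passed (Siglech) and the median log2 fold change was 0.83. Over all genes 50.4% were positive, 1.37% higher without overlap and 0.127% called, and the median was 0.00. The list's median was 0.85 within prefix T and 0.43 within prefix P. The summed level of the whole list was 4154 to 4871 CPM in the Ly6D+Gfra2- libraries and 1967 to 2959 CPM in the Ly6D-Gfra2- libraries. Runx2 and Irf8 weighed most on the gap in this sum, with group means of 1780 and 758 CPM against 971 and 311 CPM. Irf8, a factor that dendritic cells need, was at 593, 832, 705 and 901 CPM against 426, 560, 204, 191 and 173 CPM. Those groups did not overlap, and Irf8 did not pass the edgeR test (1.40 ± 0.32, adjusted p = 0.204; DESeq2 adjusted p = 0.0163; voom adjusted p = 0.00273). Runx2, which plasmacytoid dendritic cells need to leave the marrow, was at 1501 to 2169.5 CPM against 719 to 1371 CPM (0.88 ± 0.19, edgeR adjusted p = 0.131). Cox6a2, an enzyme subunit found in these cells, was at 495, 170, 169 and 126 CPM against 43.3 to 107 CPM (1.67 ± 0.43, edgeR adjusted p = 0.331). Tcf4, their defining transcription factor, was at 552 to 792 CPM against 419 to 676 CPM (0.24 ± 0.17), and Cadm1 had no count in either group. What part sorted plasmacytoid dendritic cells have in the level of Siglech and the other list members was not tested.

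**Figure D2:**
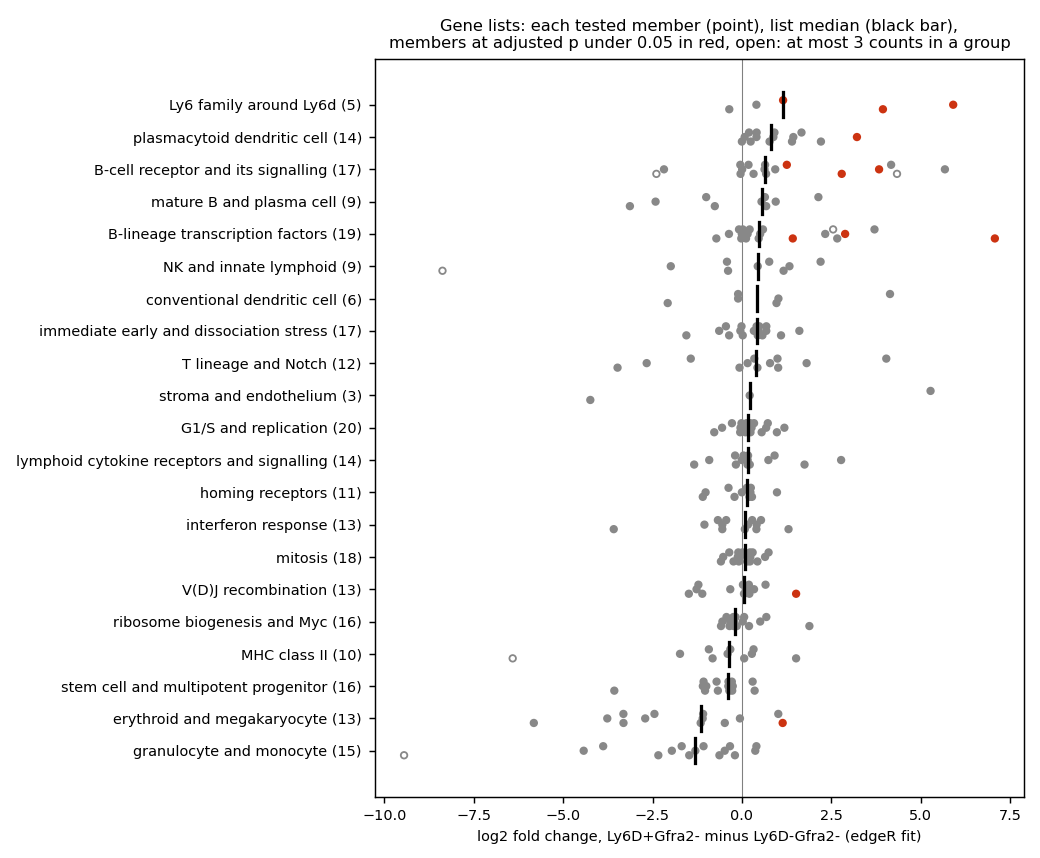
Fitted log2 fold change of every tested member of 21 gene lists (number tested in parentheses), with the list median as a black bar, members that passed in red and members with at most 3 counts in a group as open points, whose fitted fold is no measured size. The medians run from -1.30 for granulocyte and monocyte genes to 1.15 for the 5 tested Ly6 family genes, which include Ly6d.

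Ly6d lies in a cluster of related genes on chromosome 15, and 2 other genes there rose with it. Within 300 kb of Ly6d (chr15:74762056-74763567, minus strand, GRCm38.p6) the RefSeq table places 22 genes, Ly6d included. Beside Ly6d, 6 of them had enough counts to test and 2 passed, against 0.119% of all genes other than Ly6d. Lynx1, a membrane-anchored modulator of nicotinic receptors, lies at chr15:74747856-74752979 on the minus strand, 9077 bases from Ly6d. It was at 82.5, 74.9, 95.6 and 105 CPM in Ly6D+Gfra2- replicates 1, 2, 5 and 6 and at 14.1, 2.53, 4.52, 1.57 and 7.25 CPM in Ly6D-Gfra2- replicates 1, 2, 4, 5 and 6. The groups did not overlap (3.94 ± 0.65, edgeR adjusted p = 0.0265), and with replicate 3, at 92.5 CPM, the value was 2.99.

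Ly6e, a widely expressed Ly6 protein, lies 191458 bases from Ly6d on the plus strand (chr15:74955025-74959904). Its level was 1637 to 1998 CPM in the Ly6D+Gfra2- group and 523 to 1125 CPM in the Ly6D-Gfra2- group, without overlap (1.15 ± 0.21, edgeR adjusted p = 0.0452). The call was lost when any 1 library was left out. Ly6a, the stem cell antigen Sca-1, lies 231310 bases away and was at 3.37 to 32.4 CPM against 13.6 to 30.4 CPM (-0.35 ± 0.66). Arc, Jrk and Them6 did not pass either.

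**Figure D3:**
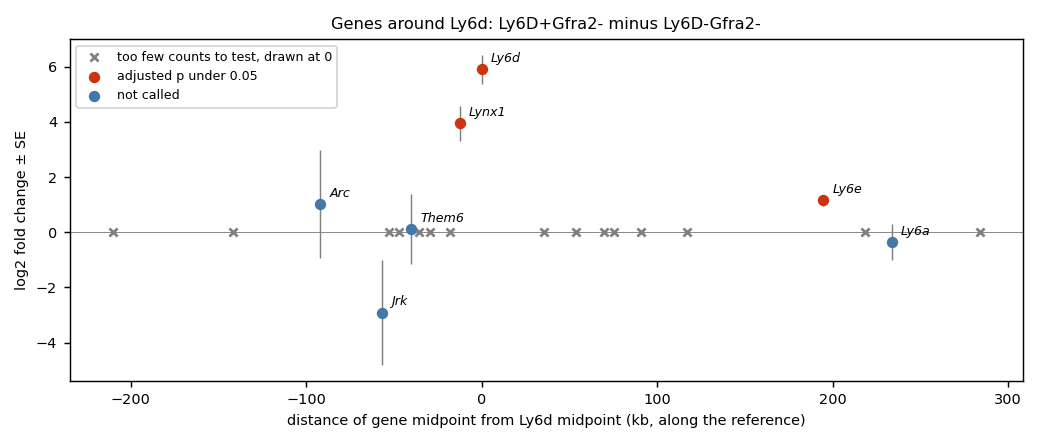
Fitted log2 fold change ± SE of the genes within 300 kb of Ly6d, by distance from Ly6d along the reference, with genes too low to test drawn as crosses at 0. Lynx1 (3.94) and Ly6e (1.15) passed the test beside Ly6d, and Ly6a (-0.35) did not.

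Of the called genes, 5 belonged to none of the B-lineage, dendritic or Ly6 lists. Cecr2, a bromodomain protein of chromatin remodelling complexes, was at 43.1, 46.8, 44.0 and 16.3 CPM in Ly6D+Gfra2- replicates 1, 2, 5 and 6 and at 2.88, 3.24, 5.11, 1.07 and 2.98 CPM in Ly6D-Gfra2- replicates 1, 2, 4, 5 and 6. Replicate 6 was the low library of the first group and still lay above all of the second (3.58 ± 0.41, edgeR adjusted p = 0.000719; 2.37 with replicate 3, at 45.3 CPM). Stum was at 53.2 to 116 CPM against 5.70 to 24.1 CPM (2.77 ± 0.39, edgeR adjusted p = 0.00632; 1.74 with replicate 3). Both calls held when any 1 of the 9 libraries was left out, and both genes were higher still in the Ly6D+Gfra2+ libraries, at 398 to 552 CPM and 199 to 274 CPM.

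Tfrc, the transferrin receptor that brings iron into growing cells, was at 762 to 1053 CPM against 329 to 492 CPM (1.14 ± 0.19, edgeR adjusted p = 0.0325). It stood in the erythroid and megakaryocyte list, whose other tested members did not pass and of which 11 of 13 were negative. Tex2, a lipid-transfer protein, was at 345 to 560 CPM against 117 to 275 CPM (1.43 ± 0.25, edgeR adjusted p = 0.0354). Fryl, a relative of a cell-shape gene of flies, was at 687 to 872 CPM against 332 to 524 CPM (0.87 ± 0.15, edgeR adjusted p = 0.0354). With replicate 3 the 3 values were 0.87, 1.17 and 0.71. Tfrc and Fryl lost the call when any 1 library was left out, and Tex2 kept it only without Ly6D+Gfra2- replicate 2.

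**Figure D4:**
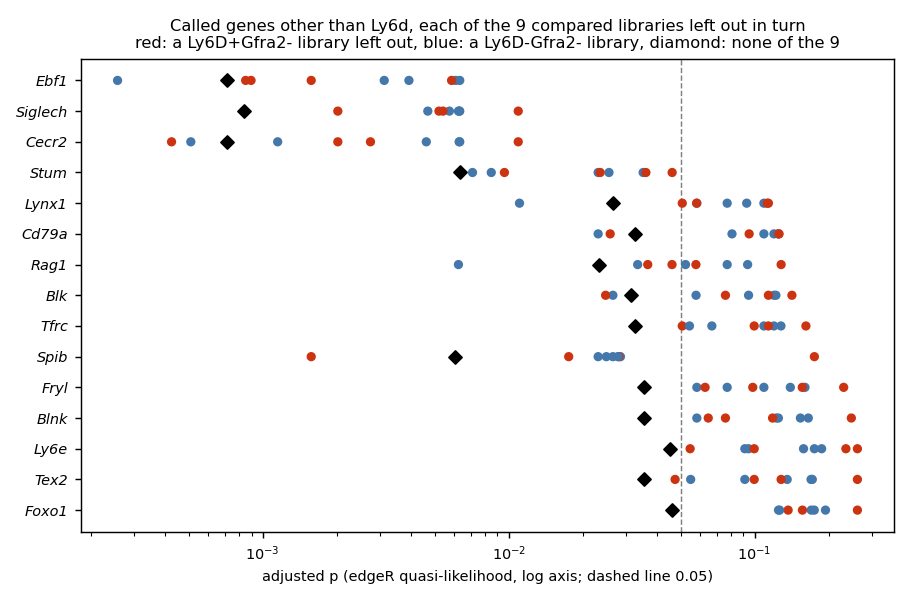
Adjusted p of the 15 called genes other than Ly6d (edgeR, log axis) with all 9 libraries compared (diamond) and with each left out in turn (red for a Ly6D+Gfra2- library, blue for a Ly6D-Gfra2- library). Ebf1, Siglech, Cecr2 and Stum stay under 0.05 throughout, Spib crosses it once, at 0.175, and the other 10 cross it more often.

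Leaving out 1 library left 6 to 10 genes called. Of the 15, Ebf1, Siglech, Cecr2 and Stum passed in all 9 such fits and Spib in 8. Rag1 passed in 4, Blk and Cd79a in 2, Lynx1, Tex2 and Foxo1 in 1, and Blnk, Ly6e, Tfrc and Fryl in none. The direction was positive for all 15 in every one of these fits, which reuse most of the libraries that chose the genes.

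Promoter windows, 250 bases before to 50 bases after a gene's start, were available from RefSeq (GRCm38.p6) for 11 of the 16 genes. They were searched on both strands for letters known from B-lineage factors: CCCNNGGG for the core of the Ebf1 site, the same core with T before and A after it for the full site, CAGCTG for E proteins, and GAGGAA for Ets factors such as Spib. Any full site also counts as a core. The 5 windows printed here are those of called B-lineage, recombinase and dendritic genes in which such letters occur in this set, Ebf1 itself left aside, and the matches stand in capitals, 5′ to 3′ on the gene's strand.
Foxo1 (chr3:52268087-52268386, plus strand): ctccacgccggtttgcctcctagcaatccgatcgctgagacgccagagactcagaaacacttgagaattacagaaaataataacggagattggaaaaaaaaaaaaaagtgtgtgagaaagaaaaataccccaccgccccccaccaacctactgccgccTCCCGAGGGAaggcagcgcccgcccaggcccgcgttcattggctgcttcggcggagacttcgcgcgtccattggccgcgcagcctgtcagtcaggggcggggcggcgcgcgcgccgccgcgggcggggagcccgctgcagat
Siglech (chr7:55767934-55768233, plus strand): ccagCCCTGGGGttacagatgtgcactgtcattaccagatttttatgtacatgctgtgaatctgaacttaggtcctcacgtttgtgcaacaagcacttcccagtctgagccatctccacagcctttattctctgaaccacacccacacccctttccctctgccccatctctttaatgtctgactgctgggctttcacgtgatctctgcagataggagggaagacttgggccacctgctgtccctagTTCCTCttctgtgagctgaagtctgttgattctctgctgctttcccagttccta
Spib (chr7:44532022-44532321, minus strand): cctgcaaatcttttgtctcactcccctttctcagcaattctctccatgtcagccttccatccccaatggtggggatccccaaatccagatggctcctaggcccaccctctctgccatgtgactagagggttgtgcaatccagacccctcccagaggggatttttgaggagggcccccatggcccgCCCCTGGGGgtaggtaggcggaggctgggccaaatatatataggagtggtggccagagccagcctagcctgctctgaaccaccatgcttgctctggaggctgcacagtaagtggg
Rag1 (chr2:101649483-101649782, minus strand): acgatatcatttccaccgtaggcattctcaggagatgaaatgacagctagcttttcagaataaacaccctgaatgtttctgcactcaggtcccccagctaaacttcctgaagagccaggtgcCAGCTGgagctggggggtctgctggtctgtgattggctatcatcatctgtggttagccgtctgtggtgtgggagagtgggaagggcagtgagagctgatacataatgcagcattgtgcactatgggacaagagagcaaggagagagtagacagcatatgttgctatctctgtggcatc
Cd79a (chr7:24897247-24897546, plus strand): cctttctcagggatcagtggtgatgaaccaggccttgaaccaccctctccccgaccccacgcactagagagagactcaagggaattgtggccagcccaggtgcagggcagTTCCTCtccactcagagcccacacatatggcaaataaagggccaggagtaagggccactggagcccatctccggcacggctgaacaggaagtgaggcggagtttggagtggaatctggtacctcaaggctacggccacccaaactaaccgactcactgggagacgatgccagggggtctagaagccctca

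The Foxo1 window holds the full Ebf1 site, 92 bases before the start, letters found in 0.904% of all 32851 windows. CCCNNGGG occurred in 5 of the 11 genes (Foxo1, Fryl, Siglech, Spib and Tex2) and in 13.7% of all windows. CAGCTG occurred in 1 of the 11, Rag1, at 128 bases before the start, and in 16.3% of all windows. GAGGAA, which reads TTCCTC in the windows of Cd79a and Siglech, occurred in 3 of the 11 (Cd79a, Ebf1 and Siglech) and in 28.3% of all windows. These matches are descriptions of sequence and not measured binding.

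Further genes were higher without overlap but did not pass. The 12 with the smallest p had an edgeR adjusted p of 0.0719 to 0.246 and included Cmah, St6gal1, Acsl1, Epha2, Runx2, Strip2, Irf8, Pde2a, Chst3, Colgalt1 and Lifr. DESeq2 called all 12 and voom 9, against 0.670% and 0.374% of all genes in either direction. The 12 were chosen by p and lack of overlap on the same counts, so these calls are no separate check. Replicate 3 lay in the Ly6D+Gfra2- range or above for 11, Pde2a being the exception. St6gal1, a sialyltransferase that makes the ligand of CD22, was at 181, 45.9, 138 and 72.4 CPM against 6.86 to 23.2 CPM (2.72 ± 0.54, edgeR adjusted p = 0.0874). Cmah, another enzyme of sialic acid, was at 885 to 1137 CPM against 527 to 677 CPM (0.74 ± 0.14, edgeR adjusted p = 0.0719). With replicate 3 both values were smaller, 2.13 for St6gal1 and 0.59 for Cmah.

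Among cytokine receptors none of 14 tested genes passed, and the median was 0.16. Il7r, the receptor for the cytokine that drives early B cells, was at 542, 700, 752 and 661 CPM against 377, 509, 336, 310 and 454 CPM. These groups did not overlap (0.74 ± 0.19, edgeR adjusted p = 0.316). Kit, the stem cell factor receptor, was lower without overlap, at 157, 153, 92.9 and 115 CPM against 239, 163, 279, 295 and 238 CPM (-0.91 ± 0.26, edgeR adjusted p = 0.541). With replicate 3 the values were 0.62 and -0.76.

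On the lower side no gene passed the edgeR test, and 186 genes (1.48%) were lower without overlap. The 12 of smallest p were Pip4k2b, Pygl, Tbxas1, Ifitm2, Ddx4, Mc5r, Kctd7, Gcnt2, Trim6, Mpo, Psat1 and Ptk7, with adjusted p of 0.242 to 0.490. DESeq2 called 10 of them, giving no adjusted p for Trim6, and voom called 5, against 0.670% and 0.374% of all genes in either direction. These 12 too were chosen on the same counts. Replicate 3 lay at or below the highest Ly6D+Gfra2- library for 5 of the 12. When only the 9 libraries were fitted, Mpo and Gcnt2 passed (edgeR adjusted p = 0.0497 and 0.00633).

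Mpo, the peroxidase of granulocyte granules, was at 420, 289, 505 and 422 CPM in Ly6D+Gfra2- replicates 1, 2, 5 and 6 and at 1124, 966, 648, 761 and 816 CPM in Ly6D-Gfra2- replicates 1, 2, 4, 5 and 6. The groups did not overlap (-1.07 ± 0.29, edgeR adjusted p = 0.438; -0.96 with replicate 3, at 432 CPM). Gcnt2, a glycan-branching enzyme, was at 46.5 to 58.3 CPM against 161 to 277 CPM (-1.79 ± 0.47, edgeR adjusted p = 0.371; -1.61 with replicate 3). Ifitm2, an interferon-induced membrane protein, was at 18.1 to 45.0 CPM against 86.9 to 109 CPM (-1.62 ± 0.39, edgeR adjusted p = 0.246; -1.41 with replicate 3).

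Of the lower genes, 4 were almost absent from the Ly6D+Gfra2- libraries. Mc5r, a melanocortin receptor, had no count there and 428 in the other group, which makes it at least 131-fold lower, with the floor of 3 counts taken over the group. Tbxas1, thromboxane synthase, had 1 count against 301, a ratio of 276 (95% interval 49.1 to 10927). Kctd7 had 1 against 558, a ratio of 511 (91.4 to 20227), and Trim6 had 1 against 500, a ratio of 458 (81.8 to 18128). These intervals cover counting error only, and the levels in the Ly6D-Gfra2- libraries ranged from 0.330 to 12 CPM for Mc5r and from 0.518 to 15.9 CPM for Kctd7.

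Genes of stem cells and multipotent progenitors and of granulocytes and monocytes lay lower as lists, with no member called. Of 16 tested stem and multipotent progenitor genes, 14 were negative and 1 was lower without overlap, with a median of -0.38. Over all genes 49.6% were negative and 1.48% lower without overlap. Their summed level was 1095 to 1376 CPM against 1595 to 1978 CPM. Cd34, a surface marker lost as progenitors mature, was at 452, 192, 218 and 148 CPM against 685, 532, 425, 479 and 359 CPM (-1.07 ± 0.28, edgeR adjusted p = 0.358). Lmo2, a cofactor of stem cell transcription factors, was at 48.3 to 152 CPM against 163 to 259 CPM, without overlap (-1.09 ± 0.33, edgeR adjusted p = 0.576). With replicate 3 these were -0.89 and -1.05, and the list's median was -0.46.

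Of 15 tested granulocyte and monocyte genes, 13 were negative and 2 lower without overlap, with a median of -1.30 (-1.28 with replicate 3), against the same 49.6% and 1.48% over all genes. The summed level was 620 to 861 CPM against 1070 to 1771 CPM. One library weighs on this list: S100a9, a protein of neutrophils, was at 176 CPM in Ly6D-Gfra2- replicate 5, 18.0 CPM in replicate 6 and 0 to 1.19 CPM in the other 3, against 0 to 0.101 CPM. The same replicate 5 held 141 CPM of the globin gene Hbb-bs, against 1.55 to 11.7 CPM in the other 4. The neutrophil genes Cebpe, Ltf and Ms4a3, the list members with no count in the Ly6D+Gfra2- libraries, were removed by the low-count filter and not tested. They had 56, 443 and 20 counts over the 5 Ly6D-Gfra2- libraries together. Such totals do not show whether 1 library held most of the counts. The erythroid and megakaryocyte list had a median of -1.15, which was -4.89 within prefix T and 0.10 within prefix P, and its summed level was 866 to 1143 CPM against 399 to 923 CPM. Tfrc carried most of that sum in the Ly6D+Gfra2- libraries, and without it the level was 43.2 to 104 CPM against 70.7 to 516 CPM. What part other cell types in the sorted samples have in these differences was not tested.

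The remaining lists held no called member. Of 12 tested T lineage and Notch genes none passed, and the median was 0.39. Of 9 natural killer and innate lymphoid genes none passed (median 0.44), and the same was true of 6 conventional dendritic cell genes (median 0.43), 10 MHC class II genes (median -0.36), 9 mature B and plasma cell genes (median 0.55, but -0.76 with replicate 3) and 3 stroma and endothelium genes (median 0.22). Several of these medians changed sign with the prefix. Within prefix T and prefix P they were 0.88 and -0.24 for T lineage and Notch, and 1.18 and -0.07 for natural killer and innate lymphoid genes. For MHC class II they were -0.19 and 0.16, for mature B and plasma cells 0.60 and -0.29, and for stroma and endothelium 0.54 and -2.48. Mki67, the proliferation antigen, was at 1694 to 2885 CPM against 1704 to 2931 CPM. None of 18 mitosis genes (median 0.08), 20 genes of G1/S and replication (0.18), 16 of ribosome biogenesis (-0.20), 13 of the interferon response (0.08), 17 immediate early genes (0.41) and 11 homing receptors (0.14) passed.

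The prefix moved some levels within both groups. The immediate early gene Dusp1 was at 9.73 to 34.5 CPM in the prefix P libraries compared and at 105 to 151 CPM in those of prefix T. Whether the difference between the groups depends on the prefix was tested with an interaction term over the 9 libraries, and no gene passed (0 of 11946, with 812 at an unadjusted p under 0.05 and a smallest adjusted p of 0.653, edgeR). Among the genes named, Irf8 had a log2 fold change of 2.09 within prefix T and 0.53 within prefix P (unadjusted p of the difference 0.000279). Of the called genes, Ly6e (1.48 and 0.74), Tex2 (1.84 and 0.93) and Siglech (3.72 and 2.59) were also further apart within prefix T. Their unadjusted p by the same edgeR interaction test was 0.0101, 0.0321 and 0.0351, and it was over 0.05 for the other called genes. All 15 called genes were higher without overlap within each prefix, against 12.1% of all genes in prefix T and 16.0% in prefix P. Their calls came from these same libraries with a prefix term, so this separation follows largely from the choice. Without Ly6D+Gfra2- replicate 2 the interaction test called 494 genes, and it called none when any other library was left out. Those 494 rest on replicate 1 as the one Ly6D+Gfra2- library of prefix P, whose spread is assumed to be like that of the other groups.

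**Figure D5:**
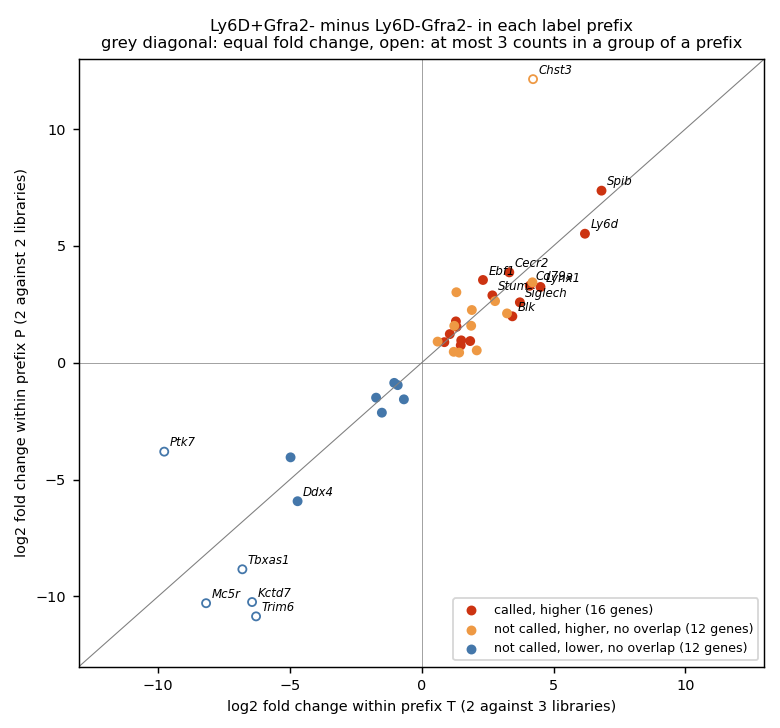
Log2 fold change within prefix T (2 against 3 libraries) and within prefix P (2 against 2) of the 16 called genes (red), the 12 higher genes that did not pass (orange) and the 12 lower ones (blue), with open points for genes with at most 3 counts in a group of a prefix. All 40 points lie in the quadrants where the prefixes have the same sign, which the rule for naming the orange and blue genes required.

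The Ly6D+Gfra2+ libraries place the 15 genes in 3 sets. All 3 of these libraries lay above all 4 Ly6D+Gfra2- libraries for 8 genes (Cecr2, Ebf1, Blk, Stum, Rag1, Foxo1, Blnk and Cd79a), as did 4.05% of all genes tested. They lay below for 3 genes (Spib, Siglech and Tfrc), as did 5.75% of all genes. Lynx1, Tex2, Ly6e and Fryl overlapped between these groups. The Ly6D+Gfra2+ libraries all have prefix T, so this order was read over 4 libraries of both prefixes against 3 of one.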

How the data were processed

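RNA sequencing measured total RNA of sorted bone marrow CLP in 13 libraries, made with a Qiagen RNeasy micro kit and NuGEN Ovation RNA-Seq and Ovation Ultralow V2 kits, per the labels' protocols. The deposited values are raw counts per RefSeq identifier, per the file headers. The submitters' processing notes name FastQC, HISAT, TopHat, HOMER, DESeq and mm10. Their roles, the release of the annotation, whether strand was used and how reads with several positions were counted are not given in the sources used here, so reads of antisense, overlapping or near-identical genes cannot be told apart. Of 24072 identifiers, 23815 were named from RefSeq (GRCm38.p6), 144 from GENCODE and 113 not at all. Genes without a name stayed in the test.

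Counts were tested with edgeR 4.0.16 (quasi-likelihood, two-sided) in R 4.3.3, on 12 libraries with terms for group and prefix, so that the 3 Ly6D+Gfra2+ libraries share in the estimate of the spread. Scaling and filter of this test used all 12 libraries. Scaling was TMM, and filterByExpr (minimum count 10, minimum total 15) left 12554 genes, against 11946 from the 9 libraries alone. Genes were called at a Benjamini-Hochberg adjusted p under 0.05 over all 12554. Folds are Ly6D+Gfra2- minus Ly6D-Gfra2-, and the procedure was tested on simulated data. DESeq2 1.42.0, limma 3.58.1 (voom with quality weights) and other settings were alternatives. No 2 files held identical counts. Named were called genes whose higher group averaged 5 CPM or more, up to 12 further genes in each direction (smallest p, same direction in both prefixes, no overlap, the same level) and up to 4 members of each of 21 gene lists with the smallest p. All members of the transcription factor, receptor, V(D)J, plasmacytoid dendritic and cytokine lists, and CLP markers, could be named beside these. Of the genes this names, 2 are not reported here. Libraries, members and lists were chosen with earlier results of these data known. Intervals and the floor of 3 counts cover counting error only.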

Additional observations from a re-analysis of the deposited data

Results flagged for a closer look

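In 126 sets of 4 or 5 libraries, each for 1 named gene in 1 group, the highest or lowest library was checked for a gap to the rest of its group, and 17 stood apart. How many sets chance alone would put apart in these data was not tested. In Ly6D+Gfra2- replicate 1, Spib at 271 CPM and Cox6a2 at 495 CPM were far above the other 3 libraries. In Ly6D+Gfra2- replicate 2 this held for Csf1r at 54.2 CPM, and in replicate 5 for Cdh5 at 30.5 CPM. Kctd7 at 0.0932 CPM in replicate 5 rests on 1 count, with none in the other 3, which is under the floor of 3 counts. In Ly6D+Gfra2- replicate 6, Strip2 stood high at 60.8 CPM and Cecr2 low at 16.3 CPM, while Tbxas1, Trim6 and S100a9, each at 0.101 CPM from 1 count, were the only values above 0 in their group and lie under that floor too.

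Among the Ly6D-Gfra2- libraries, replicate 1 stood high for Spib at 1.49 CPM and Ccne2 at 25.5 CPM, and replicate 2 for Pygl at 45.9 CPM and Gcnt2 at 277 CPM. Replicate 5 stood high for S100a9 at 176 CPM, and replicate 6 for Chst3 at 2.98 CPM and Ddx4 at 64.0 CPM. The library labelled Ly6D-Gfra2- replicate 3, which the comparison does not use, held 213 CPM of Ly6d, above the 5 libraries of its label that were kept.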

How the results depend on the processing

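The number of genes called and their split by direction moved with the processing. The 16 calls became 107 with DESeq2 and no low-count filter (72 higher, 35 lower, all 16 included, 12 of the 72 being protocadherin alpha genes that share exons), 47 with voom (41 higher, 6 lower, 15 of the 16), 44 with edgeR and no low-count filter (37 higher, 7 lower) and 8 with library size in place of TMM, which moved the median of all genes to -0.08. They became 0 with replicate 3, 1 in prefix T alone (Ly6d) and 0 in prefix P alone. In fits chosen after seeing the data, DESeq2 with the low-count filter called 66 (48 higher, 18 lower), DESeq2 with replicate 3 called 49 (24 higher, 25 lower), voom with replicate 3 called 1, DESeq2 in prefix T called 40 (31 higher, 9 lower) and voom in prefix T called 24. Size factors from DESeq2 and a filter at 5 CPM in 3 libraries left 16, no prefix term 11 and the 9 libraries alone 21. Those 21 held 13 of the 16, without Rag1, Foxo1 and Cd79a. Leaving out each library gave 6 to 10 calls, and 0 to 494 for the interaction with the prefix, the 494 arising without Ly6D+Gfra2- replicate 2, where replicate 1 stands alone in its prefix.

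Deviations of same-numbered libraries from their group means within a prefix had correlations of -0.003 to 0.040 over genes. With only 2 or 3 libraries behind each mean, this cannot tell whether same-numbered libraries share a mouse or a sort. Pairing therefore stays unknown. With the replicate block in place of the prefix, 8 genes were called.

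Over 64 named genes with an unadjusted p under 0.05 (Ly6d left aside) and 26 other settings, none of 1625 values had the opposite sign. These genes were chosen by the main fit, and the settings refit the same libraries, subsets of them or these with replicate 3. The agreement in sign was therefore largely fixed by the choice. Groups of 4 and 5, and of 2 and 2 or 3 within a prefix, limit what can be called, and at totals of 6892728 to 23705975 counts, levels under 0.133 to 0.389 CPM rest on fewer than 3 counts.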
